A study of Mus musculus with 12 samples.

Results

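The 40 genes described here carry out mitosis and its spindle checkpoint. They were taken from a list of symbols, drawn up by function with earlier results of these data known, and were matched by symbol to a table of 12955 genes. All 40 had a row, and all 40 passed the filter for testing (FPKM of at least 1 in at least 2 libraries), as 12059 genes did in all. FPKM is the number of sequenced fragments scaled by transcript length and library size, so it is a level per length. By role, 8 members act in mitotic entry, 4 form the chromosomal passenger complex, 5 the spindle checkpoint, 7 the centromere and kinetochore, and 6 the spindle. A further 4 act at anaphase and mitotic exit, and 6 on chromosome structure.

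The libraries were bulk, poly(A)-enriched RNA of mouse primordial germ cell-like cells (PGCLCs), which are cultured counterparts of the embryonic precursors of eggs and sperm. The series concerns Tex10, which acts in the nucleus and has known roles in making ribosomes and in pluripotent cells. All 12 libraries derived from J1 male embryonic stem cells, and the PGCLCs were sorted from embryoid bodies for the surface markers CD61 and SSEA1. There were 6 groups of 2 libraries. EV at day 2 and OE at day 2 had no listed treatment, and neither had EV at day 6 and OE at day 6. The labels do not spell out EV or OE. The last pair, both at day 2, had received DMSO or dTAG13 for 2 days. dTAG13 recruits a ubiquitin ligase to proteins that carry a matching tag, so that they are degraded, and DMSO serves as the solvent control. The tagged allele, the vector, its promoter and the number of clones are not given in the sources used here. Nothing states that the libraries of a group came from separate cultures, so p-values measure the spread between these libraries, which may be technical.

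As background, a cell enters mitosis when cyclin B and CDK1, activated by CDC25 phosphatases and assisted by Polo-like and Aurora kinases, switch on. Kinetochores built on CENP-A chromatin then attach to spindle microtubules, and the checkpoint proteins MAD2, BUBR1, BUB3, BUB1 and MPS1 hold back CDC20 until every chromosome is attached. CDC20 with the anaphase-promoting complex then removes securin and cyclin B, separase cuts cohesin, and the central spindle prepares the cell for division. Many of these genes are transcribed in G2 and mitosis through a promoter element called the cell cycle genes homology region (CHR), often with CCAAT boxes, which bind NF-Y, nearby. Germ cell precursors are known to divide and also to pause in G2 in the embryo.

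Promoter sequences are shown because all 40 changes had the same sign in the OE comparison at day 6 (below) and because these elements are a known shared feature of such genes. RefSeq promoter windows (250 bases before to 50 after a gene's start, GRCm38.p6) were matched for 32 of the 40 members, with 34 windows among them. Aurkb, Ccna2, Cdc25c, Incenp, Kif20a, Smc4, Spc24 and Tpx2 had no match. The CHR motif was searched as TTTGAA and the NF-Y motif as CCAAT, each on both strands. TTTGAA occurred in the windows of 24 of 32 members (75%), against 20.2% of 27025 genes with a window and 13.7% of the 9186 of them that were tested. CCAAT occurred in 26 of 32 (81.25%), against 41.1% and 43.4%. Both occurred in 22 of 32 (68.75%), against 7.97% and 5.73%. A match describes letters and is not a measured site, and no match says only that these letters were not in this window.

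The 250 bases before the start are given for Aurka, which rose in OE at both days, for Cdc20, which fell by day 6 in EV and OE alike, and for Mad2l1, which had the largest changes in OE. Capitals mark TTTGAA and CCAAT or its complement. The positions are chr2:172370571-172370820 on the minus strand for Aurka, chr4:118437344-118437593 on the minus strand for Cdc20 and chr6:66534971-66535220 on the plus strand for Mad2l1.
Aurka: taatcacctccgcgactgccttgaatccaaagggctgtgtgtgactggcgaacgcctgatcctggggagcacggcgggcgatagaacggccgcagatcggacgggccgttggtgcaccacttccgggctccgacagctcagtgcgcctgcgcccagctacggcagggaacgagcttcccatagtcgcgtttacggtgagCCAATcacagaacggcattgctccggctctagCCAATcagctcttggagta
Cdc20: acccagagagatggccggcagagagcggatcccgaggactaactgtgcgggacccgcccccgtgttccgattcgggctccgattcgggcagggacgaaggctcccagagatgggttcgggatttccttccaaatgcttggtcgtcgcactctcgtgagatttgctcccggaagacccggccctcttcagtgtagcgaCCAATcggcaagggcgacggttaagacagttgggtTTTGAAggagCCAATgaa
Mad2l1: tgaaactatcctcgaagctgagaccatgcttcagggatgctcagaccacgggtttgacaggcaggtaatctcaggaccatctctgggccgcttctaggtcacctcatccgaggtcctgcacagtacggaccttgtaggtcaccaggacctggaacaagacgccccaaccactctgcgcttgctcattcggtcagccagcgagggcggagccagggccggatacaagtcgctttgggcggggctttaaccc

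The Mad2l1 window held neither motif. Those of Birc5, Nuf2 and Pttg1 also held neither, so the members of the 32 with neither numbered 4. TTTGAA lay in the windows of 75% of the 32. Among members that passed the test in any comparison below, Mad2l1, Birc5, Pttg1 and Cdc25b lacked it and Incenp had no window. The remaining 10 that passed had a TTTGAA match. Their 30-base windows around the match nearest the start follow, in the orientation of the motif, with TTTGAA in capitals.
Aurka, chr2:172370521-172370550, minus strand: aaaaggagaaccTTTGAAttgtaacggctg
Ncapd2, chr6:125191692-125191721, minus strand: cagccgttgaggTTTGAAcagggaattgcg
Cenpa, chr5:30666890-30666919, plus strand: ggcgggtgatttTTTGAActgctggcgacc
Prc1, chr7:80294434-80294463, plus strand: cctctggctcggTTTGAAttccgcggggtc
Ccnb2, chr9:70421533-70421562, minus strand: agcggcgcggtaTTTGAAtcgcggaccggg
Kif2c, chr4:117178858-117178887, plus strand: gcattactcaggTTTGAAagagcagcctgg
Cdc20, chr4:118437344-118437373, minus strand: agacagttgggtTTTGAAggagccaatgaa
Bub3, chr7:131560315-131560344, minus strand: tcattggctgatTTTGAAcgccaacggctc
Cenpf, chr1:189688067-189688096, minus strand: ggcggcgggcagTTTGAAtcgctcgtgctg
Top2a, chr11:99024195-99024224, plus strand: tccctagtttcaTTTGAAcctttatctagc

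**Figure D1:**
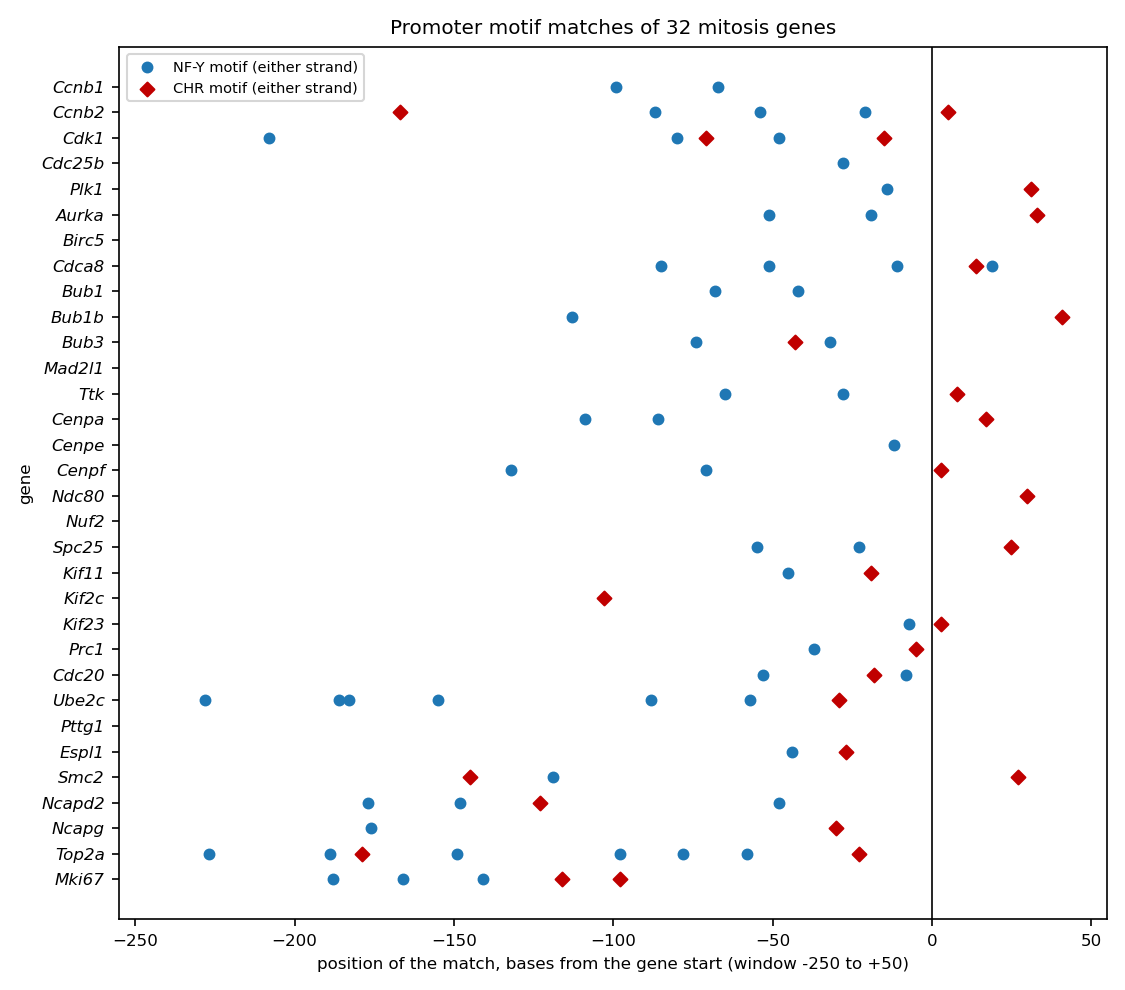
Each row is 1 of the 32 members with a RefSeq window, and the x axis is the position of a motif match in bases from the gene's start, drawn for 1 start per gene. Red diamonds (CHR motif, TTTGAA) lie mostly near the start and blue circles (NF-Y motif, CCAAT) mostly upstream of it; Mad2l1, Birc5, Nuf2 and Pttg1 show no match.

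The Tex10 transcript was read as a check of the OE and EV labels. On the log2(FPKM + 1) scale, which all changes below share, its OE change was 1.57 at day 2 (SE 0.15, limma, Benjamini-Hochberg adjusted p = 0.0028). The day 6 value was 1.84 (adjusted p = 0.000862). With dTAG13 the transcript fell by 0.53 (adjusted p = 0.0425), or by 0.68 without dTAG13 replicate 1. As dTAG13 acts on tagged proteins, RNA levels cannot show whether degradation occurred. Summed FPKM ran from 550230 to 673435 per library, and read depth is unknown. In 11 libraries 18 to 127 genes were listed at 0. In dTAG13 replicate 1 that number was 2008 (15.5%), so this library stood apart, and the dTAG13 results of the lists are given with and without it. Summed levels of 8 PGC markers were 144 to 274 FPKM and of 6 pluripotency markers 1536 to 2097 FPKM. Other lists were low: endoderm 0 to 6.39 FPKM (2 of 6 genes with a row), mesoderm 0.735 to 11.1 (4 of 6), trophoblast 1.85 to 16.3 (3 of 6) and fibroblast 0 to 0.834 (1 of 6). A neural list summed to 48.8 to 131 FPKM (4 of 6), most of it Tubb3.

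Among the members, the highest levels were those of the exit genes Cdc20 (249 to 726 FPKM) and Ube2c (379 to 561 FPKM), followed by Birc5 (308 to 524 FPKM) and Ccnb1 (215 to 439 FPKM). Cdc20 activates the anaphase-promoting complex, Ube2c is its ubiquitin-conjugating enzyme, Birc5 encodes survivin and Ccnb1 cyclin B1. The proliferation marker Mki67 was low, at 7.86 to 15.7 FPKM, and so were the CDK1-activating phosphatases Cdc25b (6.81 to 28.4 FPKM) and Cdc25c (1.55 to 20.6 FPKM). Together the 40 genes made up 0.676% to 0.932% of summed FPKM. Their summed level was 4518 ± 242 FPKM (SD, n = 2) in day 2 EV, 5242 ± 264 in day 2 OE, 5026 ± 277 with DMSO and 5298 ± 864 with dTAG13. At day 6 it was 3898 ± 252 FPKM in EV and 4919 ± 398 in OE. In bulk RNA, fewer cells in mitosis and less of each transcript per cell cannot be told apart.

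Libraries of 1 group also differed from each other across the list. EV replicate 1 at day 6 was the lowest of the 12 libraries for 16 members, and EV replicate 1 at day 2 for 9. OE replicate 1 was the highest of the 12 for 10 members at day 6 and for 8 at day 2. The dTAG13 pair split: replicate 1 was the highest library for 17 members and the lowest for 4, while replicate 2 was the lowest for 8.

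**Figure D2:**
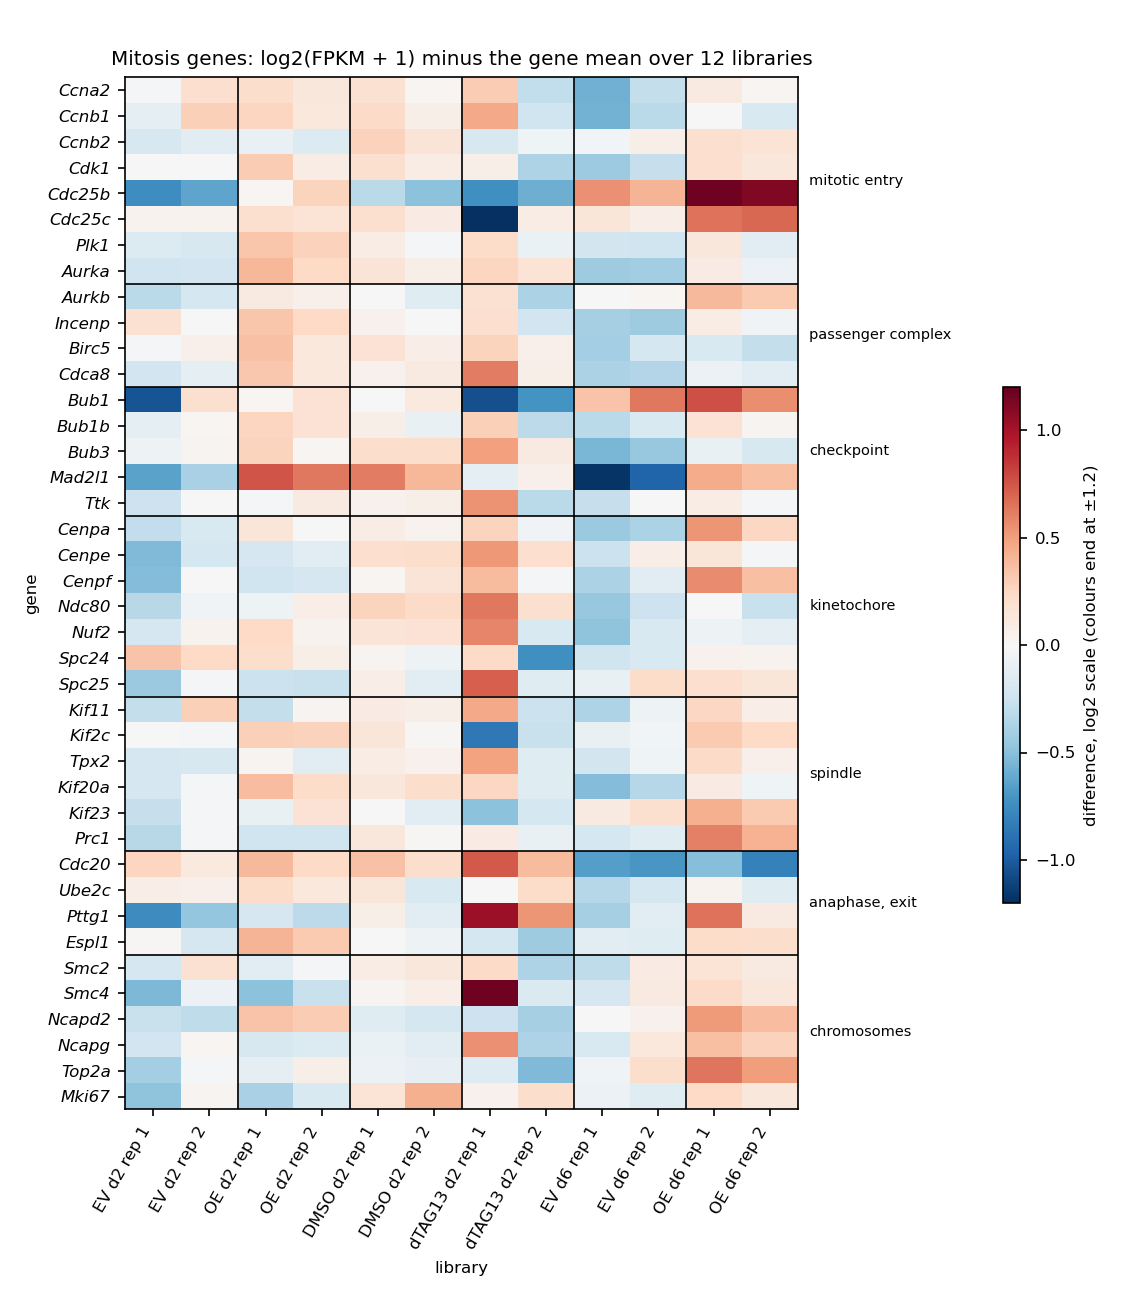
Each cell is the log2(FPKM + 1) of a gene (rows, grouped by role) in a library (columns) minus that gene's mean over the 12 libraries. The day 6 EV columns are mostly blue and the day 6 OE columns mostly red, Mad2l1 is blue in the 4 EV libraries, and dTAG13 replicate 1 holds dark red (Smc4) and dark blue (Cdc25c) cells.

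At day 6 the mitosis genes were higher in OE than in EV as a list, while few of them passed the test singly. All 40 had a positive log2 change, with a median of 0.34 against 0.05 over all tested genes, of which 56% were positive. Mad2l1, Cenpa, Prc1 and Aurka rose (4 of 40), and 0 fell by limma at an adjusted p below 0.05. Among all tested genes 1.92% rose and 1.79% fell, 3.72% in all. At an unadjusted p below 0.05 the counts were 15 of 40 higher and 0 lower, against 9.94% and 8.08% of all tested genes. Both OE libraries lay above both EV libraries for 33 members and below them for 0, against 39.3% of all tested genes above and 29.5% below.

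Mad2l1 encodes MAD2, the checkpoint protein that binds and restrains CDC20. Its level was 21.8 and 25.5 FPKM in EV and 69.4 and 65.2 FPKM in OE. The groups did not overlap, and the log2 change was 1.47 (SE 0.14, adjusted p = 0.0015). Cenpa encodes the histone H3 variant that marks centromeres, and it read 112 and 117 FPKM in EV against 222 and 182 FPKM in OE. It rose by 0.80 (SE 0.13, adjusted p = 0.0117), with both OE libraries above both of EV. Prc1, a microtubule bundler of the central spindle, read 93.7 and 98.5 FPKM in EV and 165 and 146 FPKM in OE. Its log2 change was 0.69 (SE 0.13, adjusted p = 0.0202), again without overlap. Aurka, the Aurora A kinase of centrosomes and spindle poles, read 151 and 152 FPKM in EV and 216 and 193 FPKM in OE. It rose by 0.43 (SE 0.10, adjusted p = 0.0383), and OE lay above EV in both libraries.

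The other members did not pass. In mitotic entry all 8 genes had both OE libraries above both EV libraries, against 39.3% of all tested genes. So did all 6 of the spindle and all 6 of chromosome structure. The median log2 change in mitotic entry was 0.47. Cdc25b read 18.2 and 16.4 FPKM in EV and 28.4 and 27.4 in OE (log2 change 0.66, adjusted p = 0.059). Cdk1, the kinase that drives entry, read 51.3 and 57.2 FPKM in EV and 80 and 76.4 in OE (0.52, adjusted p = 0.0925). The medians of the other roles were 0.36 for the spindle, 0.35 for the checkpoint, 0.32 for chromosome structure, 0.30 for the passenger complex, 0.28 for exit and 0.25 for the kinetochore. The smallest change was that of Cdc20, at 0.02, with overlapping libraries (276 and 269 FPKM in EV, 306 and 249 in OE). Birc5 followed at 0.08, also with overlap. Groups also overlapped for Bub1, Ttk, Cenpe, Ndc80 and Spc25.

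The count of 40 positive changes became 39 with quantile normalization and also with median-ratio scaling, where Cdc20 turned negative. It was 37 without EV replicate 1, where Birc5, Cenpe and Spc25 turned negative, and 39 without OE replicate 1 (Cdc20). Mad2l1 was the only call left when any of these 4 libraries was left out. Without dTAG13 replicate 1, 19 of 40 rose and 0 fell, against 14.4% of all tested genes that rose. That set added Ccna2, Cdk1, Cdc25b, Cdc25c, Aurkb, Incenp, Bub1b, Bub3, Cenpf, Kif2c, Kif20a, Pttg1, Espl1, Ncapd2 and Top2a. Marker lists differed between these groups as well, and their part in the result was not tested. The 8 PGC markers summed to 159 and 144 FPKM in EV and 243 and 233 in OE, with Kit at 46.7 and 41.4 against 96 and 92.6 and Nanos3 lower in OE (9.22 and 6.29 against 3.89 and 2.84). The pluripotency sum was 1764 and 1817 FPKM in EV and 1558 and 1536 in OE. Its markers did not move together, and Zfp42 was lower in OE (722 and 771 against 431 and 408). Nanog (184 and 163 against 269 and 277) and Klf4 (15.6 and 13.4 against 22.1 and 24.4) were higher. The neural sum was 70.7 and 67.9 FPKM in EV and 50.9 and 48.8 in OE.

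**Figure D3:**
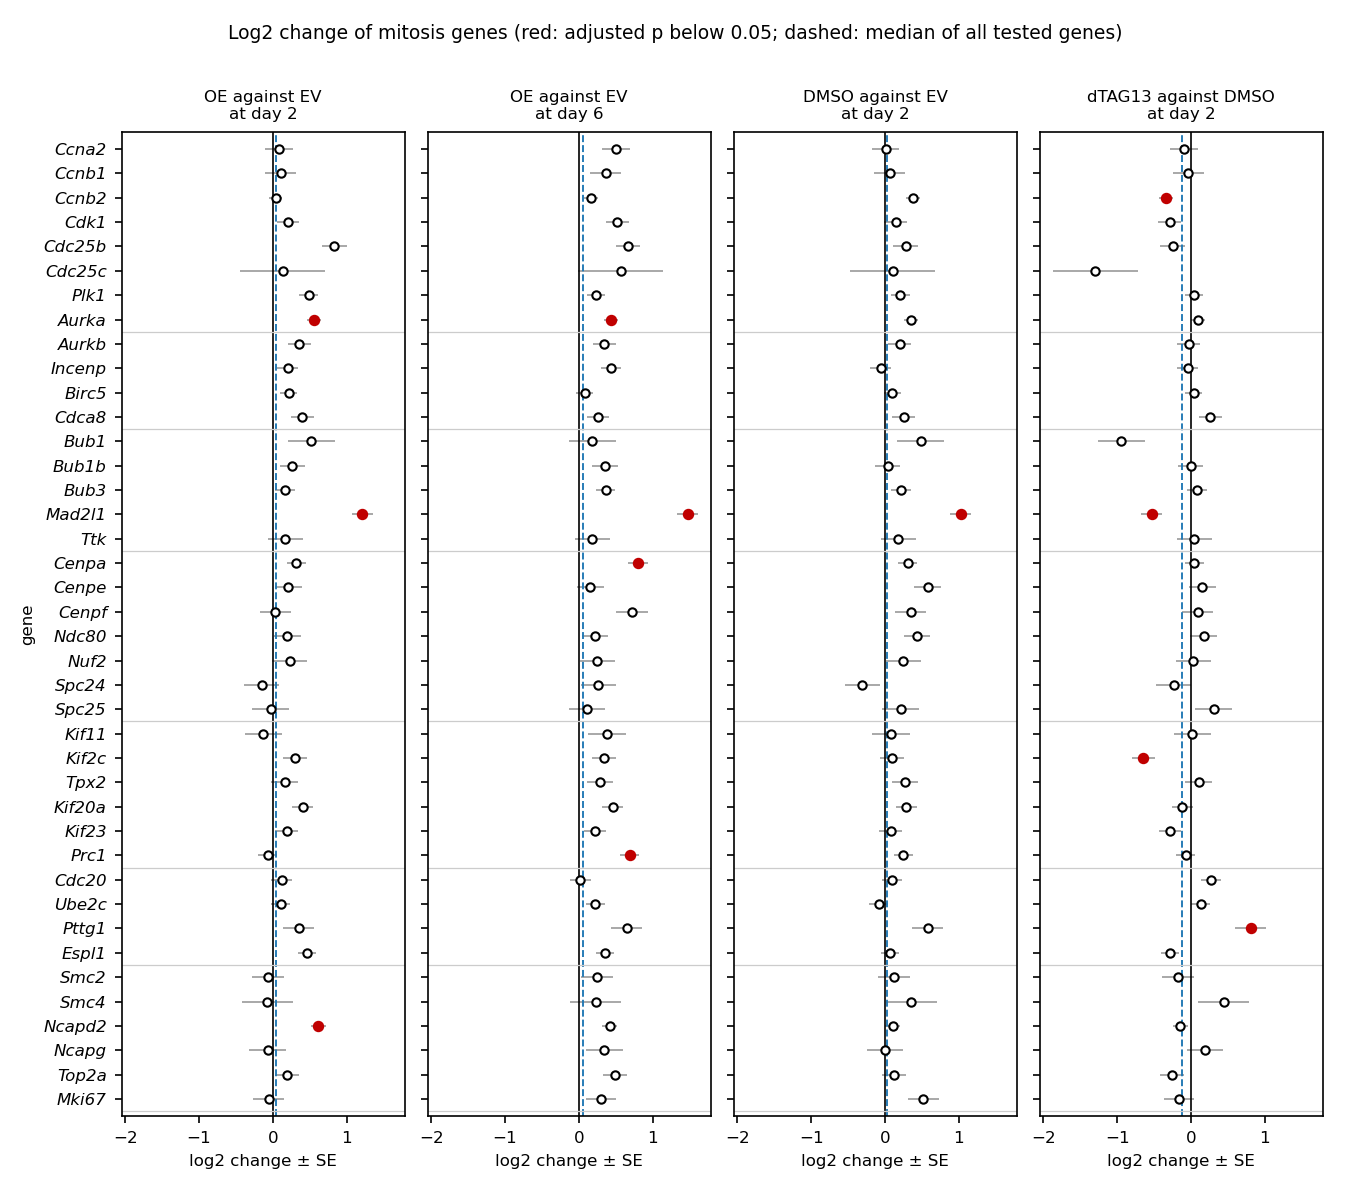
Points are log2 changes with standard errors (x axis) of the 40 members (rows, in the order of their roles) in 4 comparisons; red points had an adjusted p below 0.05 and the dashed line is the median of all tested genes. At day 6 all 40 points of OE against EV lie above 0, and Mad2l1 lies farthest out in each of the 3 comparisons with EV.

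At day 2 the mitosis genes also tended to be higher in OE, less uniformly across roles. Mad2l1, Ncapd2 and Aurka rose (3 of 40) and 0 fell by limma. Among all tested genes 0.44% rose and 0.406% fell, 0.846% in all. At an unadjusted p below 0.05 the counts were 10 of 40 higher and 0 lower, against 7.47% and 4.83% of all tested genes. Of the 40 changes 32 were positive, with a median of 0.19 against 0.04 over all genes, of which 55.3% were positive. Both OE libraries lay above both EV libraries for 21 members and below for 1 (Spc24), against 31.1% and 22.6% of all tested genes.

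For Mad2l1 the day 2 EV libraries gave 32.1 and 38.3 FPKM and those of OE 86.1 and 79.2 FPKM, without overlap. The log2 change was 1.21 (SE 0.14, adjusted p = 0.00678). Ncapd2 encodes a subunit of condensin I, which compacts mitotic chromosomes, and it read 59.4 and 57.9 FPKM in EV against 91.5 and 89.1 FPKM in OE. It rose by 0.61 (SE 0.10, adjusted p = 0.0289), and its groups did not overlap. Aurka read 171 and 173 FPKM in EV and 267 and 240 FPKM in OE. Its log2 change was 0.56 (SE 0.10, adjusted p = 0.0321), with OE above EV in both libraries.

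Changes were positive for all members of mitotic entry (8), the passenger complex (4), the checkpoint (5) and exit (4). Cdc25b missed the threshold narrowly: it read 6.81 and 7.46 FPKM in EV and 12.3 and 14.7 in OE (0.83, adjusted p = 0.0555). Plk1, the Polo-like kinase, read 149 and 146 FPKM in EV and 211 and 202 in OE (0.48, adjusted p = 0.123). The chromosome genes apart from Ncapd2 and Top2a had changes of -0.06 to -0.08, which are those of Smc2, Smc4, Ncapg and Mki67. Kif11 (-0.13), Prc1 (-0.07), Spc24 (-0.15) and Spc25 (-0.03) were the other negative values.

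No day 2 call in OE held when any of the 4 EV and OE libraries was left out. Without EV replicate 1 the positive changes numbered 27 of 40, and they numbered 29 with quantile normalization and 30 with median-ratio scaling. Without dTAG13 replicate 1, 10 of 40 rose and 0 fell, against 8.04% of all tested genes that rose: Cdc25b, Plk1, Aurka, Aurkb, Cdca8, Mad2l1, Kif2c, Kif20a, Espl1 and Ncapd2. At this day the PGC markers summed to 205 and 226 FPKM in EV and 191 and 157 in OE. This order is opposite to day 6 for the sum, but single markers split. Lower in OE were Nanos3 (37.8 and 53.6 against 18.5 and 11), Tfap2c (74.8 and 87.2 against 51.1 and 37), Prdm1 and Prdm14. Dppa3 (28.6 and 27.1 against 41.8 and 33.6) and Kit (18.2 and 17.3 against 26.3 and 23.2) were higher, as at day 6. Dnd1 was also higher (17.5 and 14.2 against 29.3 and 28.9). The pluripotency sum was 1934 and 1955 FPKM in EV and 2097 and 2008 in OE. Within it Pou5f1 was higher in OE (961 and 889 against 1156 and 1080) and Zfp42 lower (726 and 769 against 639 and 624). The neural sum was 108 and 96.4 FPKM in EV and 131 and 124 in OE. The part of these marker lists in the result was not tested.

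Whether the OE effect differed between days was tested directly. By limma 0 of 40 members passed, and 3 had an unadjusted p below 0.05, all 3 with the larger effect at day 6. Of all tested genes 4.77% had such a p with a larger and 6.04% with a smaller effect at day 6. Of all tested genes 0.232% passed, 0.0663% with a larger and 0.166% with a smaller effect at day 6. The biggest differences were those of Prc1 (0.75, SE 0.18, adjusted p = 0.136), Cenpf (0.68, adjusted p = 0.456) and Kif11 (0.51, adjusted p = 0.697). Prc1 read 86.1 and 108 FPKM in EV and 92 and 91.9 in OE at day 2, where the groups overlapped, in contrast to their separation at day 6. Its difference passed under quantile normalization, in the fit of only the groups compared, and without dTAG13 replicate 1 (adjusted p = 0.0121).

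EV also stood apart from the DMSO group, which shares day 2 with it and differs in treatment. Whether both come from 1 line is not given in the sources used here. Tex10 transcript levels differed too, at 61.7 and 56.8 FPKM with DMSO against 119 and 145 FPKM in EV. OE libraries of that day lay higher still, at 403 and 378 FPKM. As a list, the members thus leaned above EV both where Tex10 RNA was higher (OE) and where it was lower (DMSO). The part of Tex10 RNA in these differences was not tested. Mad2l1 alone was higher with DMSO (1 of 40), by 1.02 (SE 0.14, adjusted p = 0.0123), at 77.9 and 67.2 FPKM, and 0 members were lower by limma. Among all tested genes 0.249% were higher and 0.141% lower, 0.39% in all. The unadjusted counts were 8 of 40 higher and 0 lower, against 5.56% and 3.37% of all tested genes (8.92% together). Of the 40 changes 36 were positive (median 0.20, against 0.03 over all genes), and Incenp, Spc24, Ube2c and Ncapg were negative. Both DMSO libraries lay above both EV libraries for 25 members and below for 1 (Spc24), against 29.5% and 22.7% of all tested genes.

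After Mad2l1 the largest changes were those of Cenpe, the kinetochore kinesin, at 0.58 (adjusted p = 0.357), and Pttg1, at 0.58 (adjusted p = 0.419). Cenpe read 11.4 and 14.5 FPKM in EV and 19.5 and 19.8 with DMSO. Without EV replicate 1 the positive changes numbered 29 of 40, and the Mad2l1 call was lost when any of the 4 libraries was left out. This comparison and that of OE at day 2 share the EV libraries.

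Mad2l1 lies on chromosome 6 (66535390 to 66547220, GRCm38), and its neighbours there had like changes. EV was the lowest group for Mad2l1 at each day. Of the 4 tested genes on each side, 8 of 8 had a positive change in OE at day 2 (median 0.37), 7 of 8 at day 6 (0.74) and 6 of 8 with DMSO against EV (0.87). Serbp1, an mRNA-binding protein gene, was at 26.8 and 33.5 FPKM in day 2 EV, 100 and 76.5 in OE and 54.8 and 65.1 with DMSO. At day 6 it read 15.5 and 22.4 FPKM in EV and 87.4 and 70.1 in OE, and rose by 2.01 (adjusted p = 0.0104). Smarcad1, a chromatin remodeller gene, read 17.4 and 26.7 FPKM in day 2 EV, 43.2 and 46.3 in OE and 41.3 and 37 with DMSO. At day 6 its levels were 11.5 and 17.3 FPKM in EV and 33.6 and 28.2 in OE (1.07, adjusted p = 0.0381). The part of this local pattern in the rise of Mad2l1 was not tested.

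The neighbours of the other members called in OE varied from gene to gene. At day 6 the 8 nearest tested genes had median changes of -0.33 around Cenpa, -0.06 around Prc1 and 0.28 around Aurka, where 8 of 8 were positive. At day 2 the median was -0.03 around Aurka and 0.35 around Ncapd2 (6 of 8 positive), the other member on chromosome 6. Ncapd2 lies at 125168007 to 125191701, far from Mad2l1 at 66535390. With DMSO against EV the median was 0.03 around Ncapd2 (5 of 8 positive), against 0.87 around Mad2l1. At day 6, where Ncapd2 did not pass, its neighbours had a median of -0.03. The part of the neighbouring changes in those of Ncapd2 and Aurka was not tested.

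**Figure D4:**
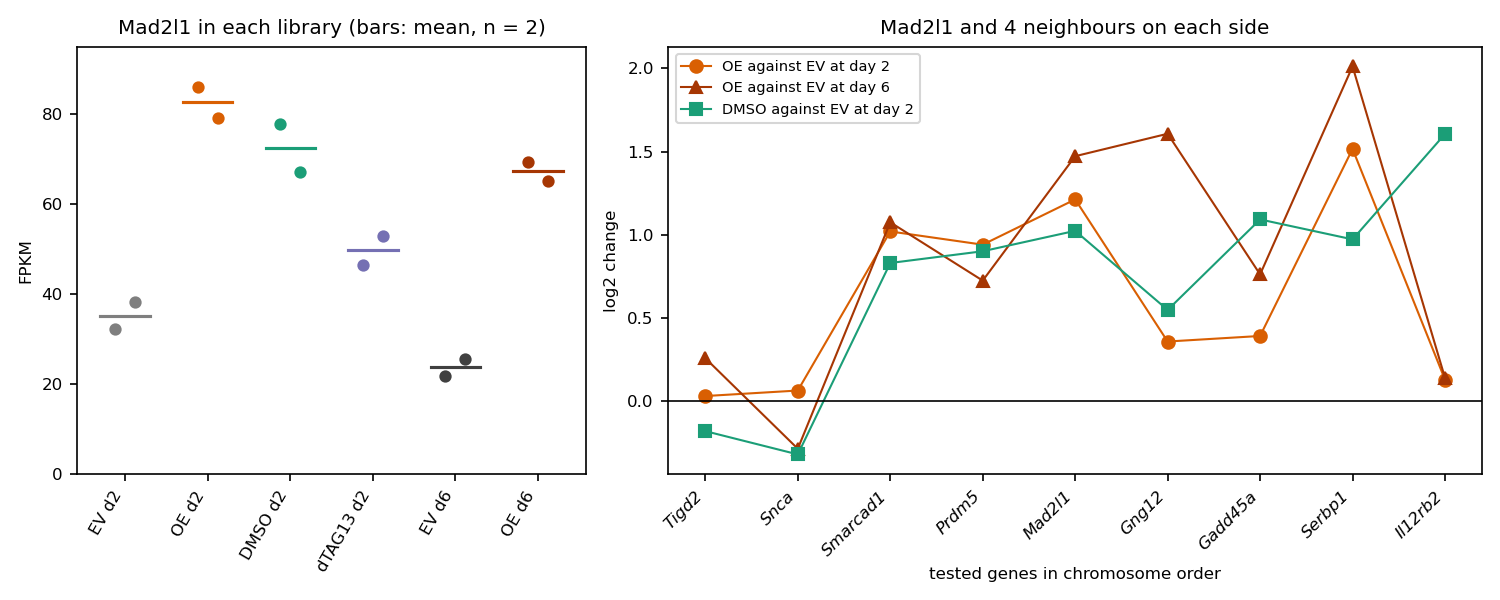
The left panel gives Mad2l1 in FPKM for each library with group means (n = 2), and the right panel the log2 changes of Mad2l1 and 4 tested neighbours on each side, in chromosome order, for 3 comparisons that involve EV. The EV libraries read 21.8 to 38.3 FPKM, below the other 8 at 46.6 to 86.1 FPKM, and most neighbours of Mad2l1 lie above 0 as it does.

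With dTAG13 the list did not move in a common direction. Pttg1 rose (1 of 40) and Kif2c, Mad2l1 and Ccnb2 fell (3 of 40). Among all tested genes 4.01% rose and 8.21% fell, 12.2% in all, so the share of members that passed was no higher than the background. Unadjusted, 1 of 40 was higher and 6 lower, against 8.97% and 22.5% of all tested genes. Of the 40 changes 19 were positive, with a median of -0.02 against -0.13 over all genes. Both dTAG13 libraries lay above both DMSO libraries for 3 members (Aurka, Cdc20 and Pttg1) and below for 11, against 13.8% and 34.7% of all tested genes.

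Pttg1 encodes securin, the inhibitor of separase, and it read 202 and 177 FPKM with DMSO and 395 and 278 FPKM with dTAG13. It rose by 0.81 (SE 0.21, adjusted p = 0.0358). Kif2c encodes a microtubule-depolymerizing kinesin, and it read 122 and 111 FPKM with DMSO and 60.1 and 90.8 FPKM with dTAG13, a log2 change of -0.65 (SE 0.16, adjusted p = 0.0308). Mad2l1 read 77.9 and 67.2 FPKM with DMSO and 46.6 and 52.9 FPKM with dTAG13. It fell by 0.53 (SE 0.14, adjusted p = 0.037), while its 8 neighbours had a median of -0.07. Ccnb2, cyclin B2, read 217 and 199 FPKM with DMSO and 156 and 172 FPKM with dTAG13, a log2 change of -0.34 (SE 0.09, adjusted p = 0.0422). None of these 4 genes had overlapping groups, and dTAG13 replicate 1 was the library farther from DMSO in each.

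The 2 dTAG13 libraries lay far apart for other members too. Cdc25c read 14.3 and 13.3 FPKM with DMSO but 1.55 and 13.2 with dTAG13, and Smc4, a condensin subunit, 43.8 and 45.2 with DMSO but 97 and 37.9 with dTAG13. Without replicate 1, 36 of 40 changes were negative (median -0.22, against -0.17 over all genes). Without replicate 2, 28 of 40 were positive (median 0.19). In the fit without replicate 1 the count was 5 lower and 0 higher, against 17% and 6.25% of all tested genes. Those 5 were Spc24 (-0.72, adjusted p = 0.000874), Cdk1 (-0.52), Mad2l1 (-0.44), Espl1 (-0.39) and Kif2c (-0.35). Pttg1 (0.56, adjusted p = 0.0562) and Ccnb2 (-0.27, adjusted p = 0.0899) then missed the threshold. Leaving out either DMSO library left none of the 4 calls of the full fit. Quantile normalization, which moved the median of all genes from -0.13 to -0.0019, kept those of Mad2l1 and Pttg1, and median-ratio scaling kept that of Pttg1, with 24 of 40 changes positive.

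**Figure D5:**
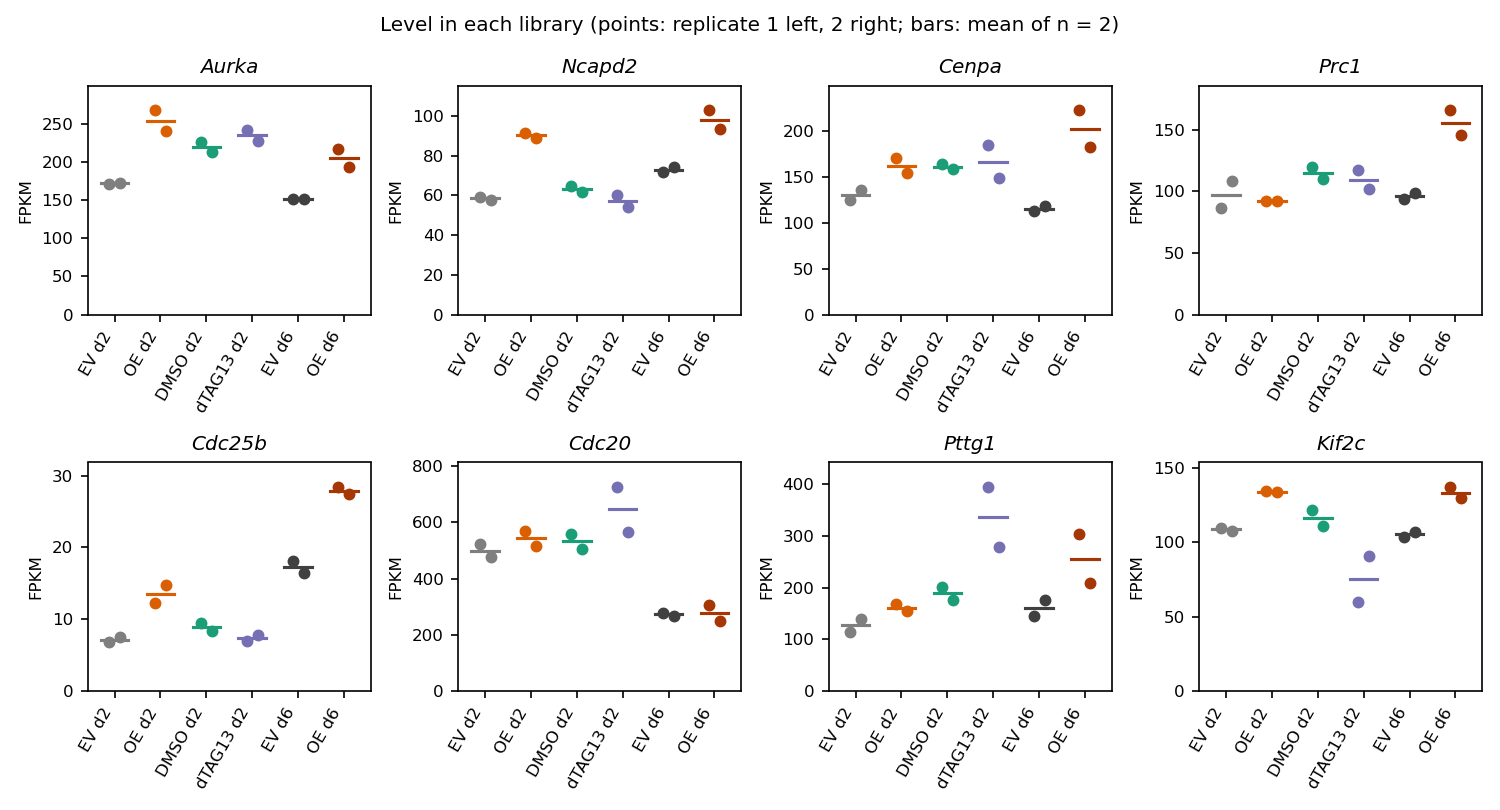
Each panel gives 1 gene's FPKM (y axis from 0) in every library of the 6 groups, with replicate 1 at the left, replicate 2 at the right and bars at group means (n = 2). Aurka, Ncapd2, Cenpa and Prc1 are higher in OE at day 6, Cdc25b is higher and Cdc20 lower at day 6, and the dTAG13 points of Pttg1 and Kif2c lie far apart.

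From day 2 to day 6 in EV, Cdc25b rose (1 of 40) and Cdc20, Mad2l1, Incenp and Bub3 fell (4 of 40). Among all tested genes 13.3% rose and 10.5% fell, 23.7% in all, so the members' count was not above the background. Unadjusted, 3 of 40 were higher and 10 lower, against 20.3% and 16.5% of all tested genes. Of the 40 changes 16 were positive, with a median of -0.05 against 0.04 over all genes. Both day 6 libraries lay above both of day 2 for 8 members and below for 17, against 39.9% and 33% of all tested genes.

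Cdc25b went from 6.81 and 7.46 FPKM to 18.2 and 16.4 FPKM, a log2 change of 1.17 (SE 0.17, adjusted p = 0.00131). Cdc20 went from 524 and 475 FPKM to 276 and 269 FPKM (-0.87, SE 0.14, adjusted p = 0.00214). Neither gene had overlapping days. The 3 others that fell were checkpoint or passenger genes: Mad2l1 (-0.55, adjusted p = 0.0186), the passenger scaffold Incenp (-0.51, adjusted p = 0.027) and Bub3 (-0.49, adjusted p = 0.0261). Incenp read 88.3 and 77.9 FPKM at day 2 and 58.7 and 57.6 at day 6, and Bub3 139 and 148 and then 98.3 and 105. The cyclins Ccna2 (-0.52, adjusted p = 0.0686) and Ccnb1 (-0.53, adjusted p = 0.0974) did not pass, although all their day 6 libraries lay below those of day 2.

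In OE the day comparison gave 6 members that rose and 3 that fell. Among all tested genes 17.5% rose and 14.7% fell, 32.3% in all. The unadjusted counts were 8 of 40 higher and 4 lower, against 23.4% and 19.3% of all. Of the 40 changes 20 were positive, with a median of 0.05 against 0.08 over all genes. Both day 6 libraries lay above both of day 2 for 20 members and below for 16, against 46% and 35.9% of all tested genes.

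Cdc25b (0.997, adjusted p = 0.00167) rose and Cdc20 (-0.97, adjusted p = 0.000706) fell, as in EV. In OE, Cdc25b read 12.3 and 14.7 FPKM at day 2 and 28.4 and 27.4 at day 6, and Cdc20 571 and 515 and then 306 and 249. Prc1 rose by 0.75 (SE 0.13, adjusted p = 0.00196), from 92 and 91.9 FPKM to 165 and 146 FPKM. Cenpf, an outer kinetochore protein gene, rose from 13.3 and 13.6 FPKM to 24 and 20.6 FPKM (0.69, adjusted p = 0.033). Pttg1 (0.64, adjusted p = 0.0419), Top2a (0.59, adjusted p = 0.0209) and Ccnb2 (0.30, adjusted p = 0.0327) rose too, and Top2a, the topoisomerase that untangles sister chromatids, went from 128 and 145 FPKM to 216 and 196. Birc5 (-0.47, adjusted p = 0.0113) and Aurka (-0.31, adjusted p = 0.0331) fell. Under quantile normalization the changes of Birc5 and Aurka shrank to -0.16 and -0.04 and did not pass. There 29 of the 40 changes were positive, with a median of 0.19 against -0.04 over all genes. By limma 12 members rose and 1 fell in that fit, where 35.6% of all tested genes passed. All 6 chromosome genes had both day 6 libraries above both of day 2 in OE, against 46% of all tested genes. In EV 1 of 6 did, against 39.9% of all tested genes. Whether the change by day differed between EV and OE is the same contrast as the difference of the OE effects above, in which 0 of 40 passed by limma and 3 had an unadjusted p below 0.05. Cdc25b and Cdc20 passed in EV and in OE, and Prc1 in OE, with each library of those groups left out in turn.

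Further mitosis genes were read from 6 lists that hold none of the 40: centromere and kinetochore, checkpoint regulators, spindle and motors, anaphase-promoting complex, cohesin and condensin, and G2 regulators. They gave 139 tested genes of 152 listed. In OE at day 6, 3 of 139 rose and 0 fell by limma, 2.16% of them against 3.72% of all tested genes. At an unadjusted p below 0.05, 17 were higher and 5 lower, 15.8% against 18% of all tested genes. Of the 139 changes 92 were positive, with a median of 0.10 against 0.05 over all genes. The 3 that rose were Stag1, a cohesin subunit (0.80, adjusted p = 0.0325), Cdca3, an adaptor of mitotic entry (0.59, adjusted p = 0.0381), and Ube2s, which extends ubiquitin chains with the anaphase-promoting complex (0.53, adjusted p = 0.0353). Ube2s read 136 and 128 FPKM in EV and 181 and 202 in OE. At day 2, 0 of 139 rose and 1 fell: Ckap2, a spindle microtubule protein gene, read 93.7 and 107 FPKM in EV and 51.6 and 51.1 in OE (-0.95, adjusted p = 0.0271). That is 0.719% of the 139, against 0.846% of all tested genes. The median there was 0.03 with 76 of 139 positive, against 0.04 over all genes.

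With dTAG13, 6 of these 139 genes rose and 8 fell, 10.1% against 12.2% of all tested genes. Their median was -0.11, against -0.13 over all genes. Without dTAG13 replicate 1 the median of these genes was -0.25, against -0.17 over all genes. The microtubule genes Kifc1, Gtse1, Kif18b, Psrc1 and Fam83d were among those that rose. Gtse1 read 139 and 143 FPKM with DMSO and 307 and 252 with dTAG13 (0.97, adjusted p = 0.00208), and Psrc1 132 and 132 against 265 and 209 (0.83, adjusted p = 0.00531). Usp44, a deubiquitinase of the checkpoint, rose by 1.34 (adjusted p = 0.00339), from 8.49 and 8.82 FPKM to 24.9 and 22.1. Those that fell with the largest changes were Ncapg2 (-0.70), Dlgap5 (-0.66) and Fbxo5 (-0.65), a condensin II subunit, a spindle protein and the inhibitor EMI1 of the anaphase-promoting complex. By day 6, 2 of 139 rose and 20 fell in EV, 15.8% against 23.7% of all tested genes. In OE 14 rose and 22 fell, 25.9% against 32.3%. With both directions counted together, these further genes thus passed less often than all tested genes in the OE, dTAG13 and day comparisons. By direction this did not always hold. In OE, 3 of 139 rose at day 6 and 1 fell at day 2, where 1.92% and 0.406% of all tested genes did. By day 6 in EV 20 fell, against 10.5% of all. In other directions the shares were lower, as with dTAG13 (8 fell, against 8.21%) and by day 6 in OE (14 rose, against 17.5%).

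Genes of the preceding cell cycle phases were read the same way. Of 40 DNA replication genes, 0 rose and 1 fell (Gins4, -0.59, adjusted p = 0.0189) in OE at day 6, and 17 changes were positive, against 40 of 40 for the mitosis genes. At an unadjusted p below 0.05, 2 were higher and 3 lower, against 9.94% and 8.08% of all tested genes. In OE at day 2 none passed by limma (0 of 40), and 6 were higher and 1 lower unadjusted, against 7.47% and 4.83% of all tested genes. There 25 of 40 changes were positive, with a median of 0.09 against 0.04 over all genes. With dTAG13, 0 of the replication genes rose and 9 fell, against 8.21% of all tested genes that fell. Unadjusted, 0 were higher and 13 lower, against 22.5% of all tested genes lower. Without dTAG13 replicate 1, 0 rose and 21 fell, against 17% of all, and Gins4 (adjusted p = 0.0526) was the only one of the 9 that then missed. The list was led by Tk1 (-0.85, adjusted p = 0.00399), Gmnn (-0.83, adjusted p = 0.00178) and Mcm10 (-0.72, adjusted p = 0.00231). Gmnn, geminin, restrains origin licensing and read 229 and 213 FPKM with DMSO and 129 and 120 with dTAG13. By day 6 in EV 0 rose and 8 fell, where 10.5% of all tested genes fell and 23.7% changed in either direction. Unadjusted, 0 were higher and 11 lower, against 16.5% of all lower and 36.8% in either direction. In OE 0 rose and 15 fell, where 14.7% of all fell and 32.3% changed, and unadjusted 0 were higher and 20 lower, against 19.3% lower and 42.7% in either direction.

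Of 22 G1 cyclins, kinases and inhibitors, the CDK inhibitor gene Cdkn2b fell in both OE comparisons, by 1.07 at the earlier day (adjusted p = 0.0321) and 1.24 at the later (adjusted p = 0.00941). Cdkn1a, which encodes p21, fell in OE at day 2 (-0.71, adjusted p = 0.0321). At day 6 its levels were 40.9 and 39 FPKM in EV and 48.6 and 46.2 in OE, with OE above EV, and the change did not pass (0.24, adjusted p = 0.337). Cyclin D1, Ccnd1, rose at day 6 (0.92, adjusted p = 0.0141). With dTAG13, 3 of 22 rose and 5 fell, against 4.01% and 8.21% of all tested genes. The median of the 22 was -0.41, against -0.13 over all genes. Without dTAG13 replicate 1 it was -0.43, against -0.17. Cdkn2b rose by 1.64 (adjusted p = 0.00108), from 15.3 and 11.9 FPKM to 42.5 and 45.5, and Cdkn1a by 1.26 (adjusted p = 0.000487), from 31.4 and 30.6 FPKM to 82.3 and 69.9. For both genes each dTAG13 library lay above each DMSO library. The third that rose was Rb1 (1.03), and Cdk6 (-1.73), Cdkn1c (-1.46), E2f2 (-1.13), Ccne1 (-1.04) and Cdk2 (-0.51) fell. Cdk6 was low, at 3.39 and 4.89 FPKM with DMSO and 0 and 1.36 with dTAG13, and so was E2f2 (1.63 and 2.17 against 0 and 0.745). Without dTAG13 replicate 1 the changes were -1.11 for Cdk6, -0.73 for Cdkn1c and -0.73 for E2f2. Those of Ccne1 and Cdk2 were then -1.13 and -0.45, and those of Rb1, Cdkn2b and Cdkn1a 0.85, 1.68 and 1.15.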

How the data were processed

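The authors' deposited table holds FPKM values with 1 added, which was subtracted; the added 1 was inferred from the digits (90.1% of values from 1.1 to 2 had 7 or more digits, against 0% from 2 to 10). Per the submitters' processing notes, FastQC 0.10.1, Trim Galore 0.6.3, cutadapt, STAR 2.7.6a and Cufflinks 2.2.1 were used with mm10. The annotation is not given in the sources used here. Read depth is unknown, so no counting error can be given. Groups followed the labels; a title spelled dATG has dTAG13 as its treatment.

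One model of 6 groups was fitted across 12059 genes in limma 3.58.1 (R 4.3.3). Values were log2(FPKM + 1), a scale that understates changes of low genes. Prior variance was trended (6 residual and 3.86 prior degrees of freedom), and an adjusted p (Benjamini-Hochberg over all tested genes) below 0.05 counted as a change. Errors of log2 changes are standard errors. The scripts were tested on simulated data. Gene positions came from GENCODE M21 by symbol. Members and lists were chosen with earlier results of these data known. Named were all members that passed in a comparison, the largest changes up to 3 where fewer passed, and Mad2l1 with its neighbours. From further lists, all genes that passed were named where at most 6 did, otherwise the 3 largest per direction; other names were chosen after their values were seen. Alternatives covered pseudocount, filter, scaling, replicate block, the groups fitted and single libraries. The block with crossed numbers, and the further lists and Tex10 without dTAG13 replicate 1, were added after seeing the data. Python 3.11.15, pandas 2.3.3, numpy 2.4.6 and matplotlib 3.10.9 were used.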

Additional observations from a re-analysis of the deposited data

How the results depend on the processing

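With only the groups compared in the fit, the counts were 9 for OE at day 2 (3 in the model of all groups), 23 for OE at day 6 (4), 1 for the difference of the OE effects (0), 0 for dTAG13 (4), 14 and 25 for day 6 against day 2 in EV (5) and OE (9), and 2 for DMSO against EV (1). In the same order 12.9%, 30.1%, 10.1%, 0%, 45.5%, 64.6% and 2.78% of all tested genes passed in those fits, so the members' counts for the days (14 and 25 of 40) were no higher than the background. Quantile normalization gave 7 for OE at day 6, 1 for the difference, 2 for dTAG13 and 11 for the days in EV. Of all tested genes 8.68%, 1.15%, 11.9% and 27.9% passed there. For the days in OE it gave 12 higher and 1 lower, where 35.6% of all tested genes passed. Median-ratio scaling gave 1 for dTAG13 and 11 for the days in EV, where 10.8% and 26.4% of all tested genes passed. Leaving out each library in turn gave 0 to 10 for OE at day 2, 1 to 19 for OE at day 6, 0 to 1 for the difference, 0 to 15 for dTAG13, 2 to 15 and 3 to 22 for the days in EV and OE, and 0 to 5 for DMSO against EV. Leaving out dTAG13 replicate 1 left the members' medians in the other comparisons unchanged. More members, and more of all tested genes, then passed in each of them. The model shares each gene's estimate of spread across all comparisons. That library enters the other comparisons through this estimate and through the filter on low values. How far each contributed was not tested. Of 388 alternative values for 31 pairs of a gene and a comparison, 300 kept direction and side of the threshold, 82 no longer passed, 6 newly passed and 0 reversed. The labels do not say that replicate numbers pair the samples, and they were not taken to. Deviations of same-numbered libraries correlated at 0.13 for OE and EV at day 2, -0.12 at day 6, -0.10 for dTAG13 and DMSO, -0.04 for DMSO and EV, 0.25 for the days in EV and 0.14 for the days in OE. With a replicate block the counts were 3, 4, 0, 3, 7, 10 and 1 in the order above (OE at day 2 first). In those fits 0.813%, 3.08%, 0.174%, 11.2%, 22.7%, 31.3% and 0.323% of all tested genes passed. With crossed numbers the counts were 3 members of 325 changed genes for OE at day 6 and 4 of 1414 for dTAG13.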
